A study of Mus musculus with 18 samples.

Results

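The 39 genes described here encode the folding and quality-control machinery of the endoplasmic reticulum (ER), and all 39 were found by symbol among the 24047 genes of the count table of mouse colon crypts. They were chosen by name and comprised 11 Hsp70 and Hsp90 family chaperones and cofactors, 3 lectin chaperones, 11 disulfide isomerases and oxidases, 2 peptidyl-prolyl isomerases and 12 genes of ER-associated degradation (ERAD). The study asked whether ERN2 (IRE1β), an ER stress sensor made by mucosal epithelium, was needed for the response of colon crypts to gut microbes. RNA-Seq was performed on crypt epithelial cells of C57BL/6 mice in 6 groups of 3 libraries. CONV-WT and CONV-Ern2-/- mice were conventionally raised and carried gut microbes, GF-WT and GF-Ern2-/- mice lived without microbes, and COLONIZED-WT and COLONIZED-Ern2-/- mice had been germ free until a single gavage of cecal microbes, 14 days before crypts were taken, and had since been kept outside the isolator. The study's text gives CONV-WT mice as the cecal donors of its colonized WT and Ern2-/- mice, and the labels do not state the donor. Ern2-/- is the genotype as labelled, with no cell-type-specific driver of the deletion named in the methods, both germ-free lines were rederived, and crypts were freed with EDTA without sorting, so that every epithelial lineage contributed RNA. The labels give no age or sex for any group, and nothing in them says more of the replicates than that they were separate samples, so that p-values measure the spread between these samples.

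Secreted and membrane proteins fold in the ER. BiP, the Hsp70 chaperone encoded by Hspa5, holds unfolded chains together with its cochaperones, calnexin and calreticulin hold chains that carry N-linked glycans, and protein disulfide isomerases form and reshuffle cysteine bonds. Chains that fail to fold are drawn back to the cytosol through a complex built around the ubiquitin ligase HRD1 (Syvn1) and its adaptor SEL1L, extracted by the ATPase p97 (Vcp) and degraded. When unfolded protein builds up, the sensors IRE1, ATF6 and PERK signal to the nucleus, and the transcription factors XBP1 and ATF6 raise the transcription of many of these genes. Goblet cells, which fold and secrete the large disulfide-linked mucin MUC2, depend heavily on this machinery.

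Library totals ran from 5865619 to 23154481 counts, and 18217 genes had a count. Ern2 itself was counted in every library. Its normalized counts (divided by a size factor for each library) ran from 1909 to 3100 in the 9 WT libraries. Of the libraries labelled Ern2-/-, the 3 CONV libraries held 998, 1622 and 1487, GF replicates 1 and 3 held 2877 and 3336 against 386 in replicate 2, and COLONIZED replicate 1 held 2567 against 1325 and 1885 in replicates 2 and 3. Ern2 thus lay within or above the WT range in 3 libraries labelled Ern2-/-, and the count of members called in each comparison that uses them is also given without them. Y-linked genes were expressed in none of the GF-WT libraries and in all 3 CONV-Ern2-/- libraries, and in 1 or 2 libraries of every other group, so that sex was unevenly spread. CONV-WT replicate 3, with 8198204 counts, stood apart for the genes described here. Its median member was at 24.9% of the mean of replicates 1 and 2, whereas the median of 12436 genes was at 96.1%. It held the lowest of the 18 values for 32 of the 39 members (82.1%), against 17.9% of all genes. The summed goblet cell markers were 108136 in this library and 675660 and 590352 in replicates 1 and 2, and the summed enterocyte markers were 337993 against 78522 and 107215. Most of the latter gap was Car1, a carbonic anhydrase (269449 against 22612 and 53108), and the other 11 enterocyte markers summed to 68544 against 55910 and 54107. GF-Ern2-/- replicate 2, to which some fits reduce the germ-free arm, also stood apart, with the lowest of the 18 values for 15.1% and the highest for 14.3% of 12441 genes, and with enterocyte markers at 556754 against 102393 and 131711 in replicates 1 and 3 (without Car1, 181981 against 86455 and 91541). Markers of plasma cells and B cells, which also hold much ER, summed to between 5 and 27 normalized counts per library over the 12 of 17 listed genes in the count table. The immunoglobulin genes Igha, Ighm, Igkc and Iglc1 were not in the table and could not be summed. Of the genes summed, Tnfrsf17 was at 0 throughout, and Igj reached 17.8.

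Promoters of these genes are described first, because many carry elements through which XBP1 and ATF6 are known to act. A window from 250 bases before to 50 bases after the start site was taken from RefSeq (build GRCm38.p6) and was matched for 34 of the 39 genes. Exact matches were searched on both strands. The ER stress response element (ERSE, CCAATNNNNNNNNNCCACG) was present in 10 of the 34 genes (29.4%) and in 37 of the 27025 genes with a RefSeq promoter window (0.137%). ERSE-II (ATTGGNCCACG) was present in 2 (5.88%, against 0.0444%), and the core of the unfolded protein response element (TGACGTGG, a search that was added after the counts were seen) in Txndc5, Txndc11 and Vcp (8.82%, against 0.714%). The shared core CCACG, which is contained in ERSE, in ERSE-II and in TGACGTGG read on the other strand, was present in 30 (88.2%, against 35.5%). A match describes these letters and does not show that a factor binds there. The ERSE and ERSE-II sites are shown because they mark the members that hold a known stress element; each is written in the orientation of the motif, with its fixed letters in capitals and the spacer in lower case.
Hspa5, chr2:34772025-34772043, plus strand: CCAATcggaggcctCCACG
Hsp90b1, distal site, chr10:86705638-86705656, minus strand: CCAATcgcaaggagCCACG
Hsp90b1, proximal site, chr10:86705533-86705551, plus strand: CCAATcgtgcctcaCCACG
Dnajc3, chr14:118937827-118937845, plus strand: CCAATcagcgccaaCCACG
Creld2, chr15:88819520-88819538, minus strand: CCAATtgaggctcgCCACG
Calr, chr8:84847075-84847093, plus strand: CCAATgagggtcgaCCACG
Canx, chr11:50325800-50325818, minus strand: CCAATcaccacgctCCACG
Pdia6, chr12:17266491-17266509, plus strand: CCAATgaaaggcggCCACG
Ero1lb, chr13:12565682-12565700, minus strand: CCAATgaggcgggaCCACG
Derl3, chr10:75893242-75893260, minus strand: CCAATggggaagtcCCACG
Syvn1, chr19:6046532-6046550, plus strand: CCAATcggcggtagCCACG
Dnajb11 (ERSE-II), chr16:22857852-22857862, plus strand: ATTGGcCCACG
Herpud1 (ERSE-II), chr8:94386377-94386387, plus strand: ATTGGgCCACG

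ERSE sites lay between 203 and 35 bases before the start site. Those of Hspa5, Dnajc3, Canx, Pdia6 and Syvn1 had the orientation of the gene, those of Creld2, Calr, Ero1lb and Derl3 had the other, and Hsp90b1 had one site in each. The longer upstream sequences of Hsp90b1 (chr10:86705510-86705694, minus strand), Creld2 (chr15:88819396-88819645, plus strand), Derl3 (chr10:75893148-75893397, plus strand) and Herpud1 (chr8:94386179-94386428, plus strand) give the context of the paired, reversed and short elements. They are written 5′ to 3′ on the strand of the gene, with ERSE or ERSE-II in capitals, so that a reversed ERSE begins with CGTGG and ends with ATTGG. Only bases outside the annotated exons of the gene are shown.
Hsp90b1: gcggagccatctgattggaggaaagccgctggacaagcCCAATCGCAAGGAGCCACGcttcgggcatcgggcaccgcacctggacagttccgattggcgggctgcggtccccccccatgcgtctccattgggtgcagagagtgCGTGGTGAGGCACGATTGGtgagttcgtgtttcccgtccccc
Creld2: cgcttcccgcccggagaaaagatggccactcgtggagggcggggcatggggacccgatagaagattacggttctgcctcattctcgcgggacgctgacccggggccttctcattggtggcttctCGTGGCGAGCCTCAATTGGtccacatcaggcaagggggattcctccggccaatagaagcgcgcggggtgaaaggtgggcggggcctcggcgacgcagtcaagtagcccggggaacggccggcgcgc
Derl3: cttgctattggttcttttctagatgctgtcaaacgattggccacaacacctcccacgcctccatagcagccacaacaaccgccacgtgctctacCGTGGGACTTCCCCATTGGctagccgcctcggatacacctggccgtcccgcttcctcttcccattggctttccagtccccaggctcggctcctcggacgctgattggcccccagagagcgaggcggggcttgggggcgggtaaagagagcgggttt
Herpud1: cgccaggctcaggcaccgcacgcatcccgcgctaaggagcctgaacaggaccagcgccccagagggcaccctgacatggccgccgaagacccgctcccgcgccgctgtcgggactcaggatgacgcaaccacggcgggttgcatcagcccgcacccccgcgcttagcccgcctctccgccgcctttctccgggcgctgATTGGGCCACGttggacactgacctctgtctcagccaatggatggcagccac

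**Figure D1:**
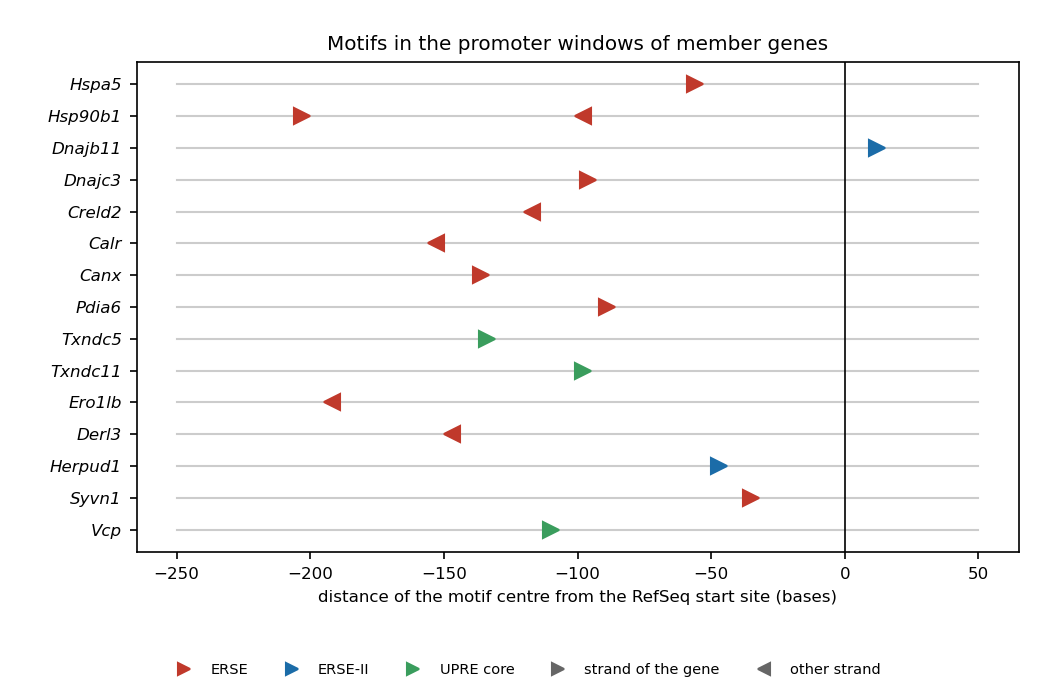
Position of ERSE, ERSE-II and the unfolded protein response element core in the promoter windows of the 15 members that hold one; the x axis is the distance of the motif centre from the RefSeq start site in bases and each grey line is one window. ERSE centres lie from 203 to 35 bases before the start, and the ERSE-II of Dnajb11 lies 12 bases after it.

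Levels of the members differed widely in germ-free crypts. To compare genes roughly, normalized counts were divided by kilobases of annotated exon. This length is the union of all annotated exons and not that of the transcripts expressed, so that ranks between genes are approximate. On this scale the mean of the 3 GF-WT libraries was highest for P4hb (5008), a disulfide isomerase and subunit of prolyl hydroxylase. Next came Calr (3845), Pdia3 (2961), Hsp90b1 (2088), Canx (1387), Os9 (1353) and Hspa5 (1340). P4hb (4573 to 5230 over the 3 libraries) and Calr (3170 to 4342) did not overlap, whereas the neighbors Canx (1331 to 1424), Os9 (1340 to 1374) and Hspa5 (1241 to 1483) did. The lowest were Derl3 (3.13), Ero1lb (15.0), an oxidase that recharges disulfide isomerases, and Fkbp11 (21.8), an ER prolyl isomerase. In COLONIZED-Ern2-/- crypts the means per kilobase were 8682 for Calr, 6758 for P4hb and 5937 for Hspa5, and Derl3 stood at 114. Exons of 13 members overlap those of another annotated gene, 9 of them a protein-coding gene, with 2210 shared bases between Erp29 and Naa25. How the counting used strand is not given in the sources used here. Whether reads from the shared bases were assigned to the right gene is therefore not known.

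**Figure D2:**
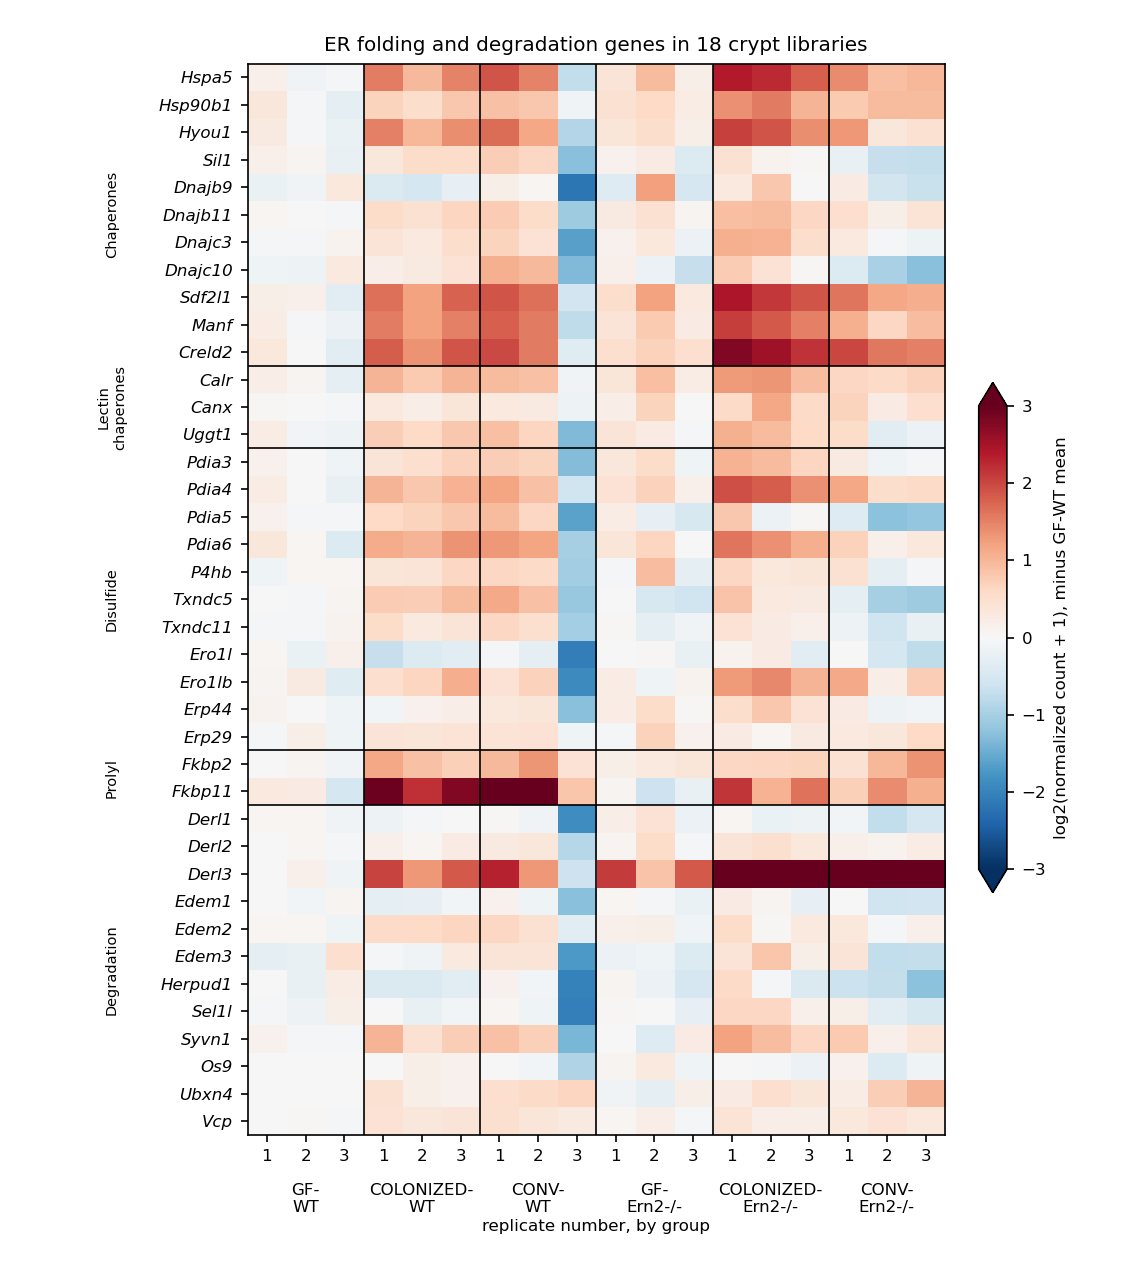
All 39 members (rows, ordered by role) in the 18 libraries (columns, by group and replicate); color is the log2 of the normalized count plus 1, minus the mean of the 3 GF-WT libraries, and is saturated beyond 3. CONV-WT replicate 3 is blue for most members, and Derl3 and Fkbp11 show the strongest red.

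Much of this machinery was higher in colonized than in germ-free WT mice. Comparing COLONIZED-WT with GF-WT crypts, 22 of 39 members were higher and 0 were lower at a DESeq2 adjusted p below 0.01, where 9.35% of the 13635 genes tested were higher and 8.97% lower. The median log2 difference of the members was 0.54, against -0.01 over all genes, and 33 of 39 were above 0. edgeR called 14 members, all higher, among 630 genes. With sex as a covariate DESeq2 called 7 among 231, against 2498 genes without it (the 7 were Hspa5, Hyou1, Sdf2l1, Manf, Creld2, Txndc5 and Fkbp11). No GF-WT library had Y-linked expression. The sex-adjusted difference therefore rested on COLONIZED-WT replicate 2, the only COLONIZED-WT library without it. These are bulk crypts, in which a change in the number of cells of a type and a change in RNA per cell cannot be told apart. The goblet marker sum ran from 217602 to 340339 in GF-WT and from 350225 to 463651 in COLONIZED-WT libraries, with 8 of its 17 genes called higher and 2 lower. Tuft cell markers summed to 718 to 981 and to 1493 to 2683, with 4 of 5 called higher and 0 lower, and 2 of 12 enterocyte markers were called lower and 0 higher. The part of these cell types in the results was not tested.

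Among the chaperones 8 of 11 rose. Creld2, an ER protein of the stress response, had 481, 387 and 311 normalized counts in GF-WT and 1363, 978 and 1439 in COLONIZED-WT crypts (log2 difference 1.69, SE 0.21, adjusted p 3.29e-13). Sdf2l1, a BiP cofactor that keeps chains from aggregating, went from 458, 446 and 320 to 1266, 932 and 1372 (1.56, SE 0.20). Hspa5 had 6273, 5250 and 5477 in GF-WT and 16389, 11069 and 15734 in COLONIZED-WT libraries (1.35, SE 0.18, adjusted p 3.48e-12). For all of these the lowest COLONIZED-WT library lay above the highest GF-WT library. The share of all genes so separated was not counted for any single comparison. Here and below, a lack of overlap in genes called on the same libraries adds no support to the call. Manf, a secreted ER stress protein, went from 1173, 971 and 884 to 2885, 2312 and 2848 (1.42, SE 0.16). Hyou1, the nucleotide exchange factor GRP170 that resets BiP, went from 2269, 1786 and 1624 to 5326, 3737 and 4899 (1.31, SE 0.19). Hsp90b1, which encodes GRP94, the Hsp90 of the ER, had 10496, 7918 and 6845 against 13266, 11992 and 14531 (0.67, SE 0.18, adjusted p 0.00164). These too did not overlap between the groups. Dnajb11 (0.57) and Dnajc3 (0.41), both BiP cochaperones with a J domain, also rose. The J-domain gene Dnajb9 had a log2 difference of -0.40 (SE 0.19, adjusted p 0.10), Dnajc10 one of 0.30 (adjusted p 0.173), and Sil1, a second exchange factor of BiP, one of 0.48 (adjusted p 0.0103).

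The lectin chaperone Calr, or calreticulin, rose from 12506, 11591 and 9129 to 22302, 19058 and 22320 (0.95, SE 0.16, adjusted p 5.47e-08). Uggt1, the glucosyltransferase that sends unfolded glycoproteins back to the lectins, rose from 2870, 2327 and 2210 to 4102, 3734 and 4310 (0.72, SE 0.15). Canx, the membrane-bound partner of calreticulin, had a difference of 0.30 (SE 0.11) that was not called (adjusted p 0.0228). All COLONIZED-WT libraries lay above all GF-WT libraries for these 3 lectin cycle genes. Of the disulfide genes 6 of 11 rose. Pdia6 had 3199, 2647 and 1908 in GF-WT and 5473, 5102 and 6485 in COLONIZED-WT crypts (1.15, SE 0.20). Pdia4 had 2362, 2015 and 1718 against 4096, 3518 and 4167 (0.96, SE 0.16). Txndc5 had 5340, 5184 and 5760 against 9263, 9062 and 10512 (0.83, SE 0.12, adjusted p 7.62e-10). The other disulfide isomerases that rose were Pdia5 (0.70), Pdia3 (0.54) and P4hb (0.47). Neither oxidase was called: Ero1l had a difference of -0.47 (SE 0.17, adjusted p 0.0258) and Ero1lb one of 0.76 (SE 0.25, adjusted p 0.0134). Both prolyl isomerases rose, Fkbp11 from 69.9, 68.0 and 39.6 to 449, 264 and 399 (2.66, SE 0.28, adjusted p 1.51e-18), which was the largest difference among the 39, and Fkbp2 from 675, 710 and 614 to 1491, 1228 and 1096 (0.94, SE 0.16).

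Of the ERAD genes 4 of 12 rose, and their median difference was 0.14, against 0.67 for the chaperones. Syvn1, the HRD1 ligase, rose from 1162, 1017 and 1011 to 2145, 1455 and 1768 (0.76, SE 0.17, adjusted p 0.000158). Edem2, a mannosidase-like protein that commits glycoproteins to degradation, rose from 1088, 1082 and 946 to 1541, 1562 and 1611 (0.61, SE 0.12). Vcp rose from 2935, 3042 and 2878 to 3977, 3753 and 3849 (0.40, SE 0.10). These 3 genes separated the groups without overlap, and so did Derl3, a derlin of the retrotranslocation complex, which had 6.15, 7.01 and 5.55 in GF-WT and 28.5, 16.9 and 24.6 in COLONIZED-WT libraries (1.91, SE 0.54, adjusted p 0.00278). Derl3 rested on raw counts of 8, 10 and 8 in the GF-WT libraries and was called in 2 of the 6 fits that left out 1 library, those without GF-WT replicate 1 or COLONIZED-WT replicate 2, with adjusted p of at most 0.0397 in all 6. Herpud1, a scaffold of the HRD1 complex and a holder of ERSE-II, had a difference of -0.40 (SE 0.15, adjusted p 0.0362). Without GF-WT replicate 2 it was called lower (-0.51, adjusted p 0.00435), and over the fits without 1 library its adjusted p ran up to 0.149. Sel1l (-0.10), Edem1 (-0.20), Derl1 (-0.04), Derl2 (0.16), Edem3 (0.03), Os9 (0.11) and Ubxn4 (0.27) were not called either, with adjusted p from 0.128 to 0.947. Members with an ERSE had a median difference of 0.85 and 8 of 10 rose, those without one had a median of 0.41 and 12 of 24 rose; the difference between these sets was not tested.

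**Figure D3:**
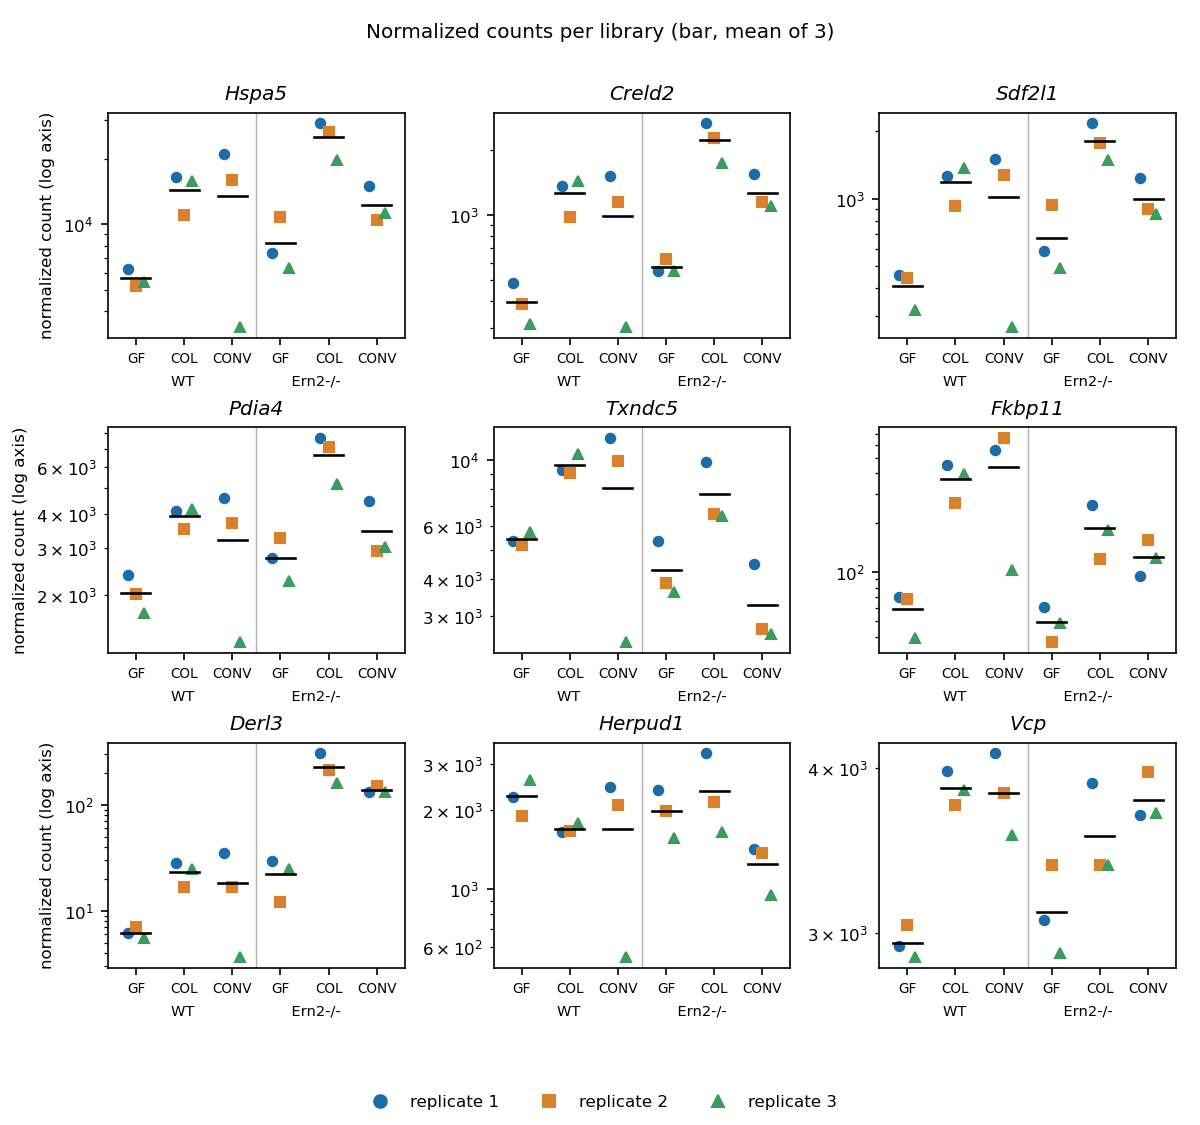
Normalized counts of 9 members in each of the 18 libraries (y axis, log scale; x axis, GF, COLONIZED, written COL, and CONV under each genotype label); symbols are replicates and bars the mean of 3. In the COLONIZED-WT libraries Hspa5, Creld2, Sdf2l1, Pdia4, Txndc5, Fkbp11, Derl3 and Vcp lie above all GF-WT libraries, and Derl3 is highest in the COLONIZED libraries labelled Ern2-/-.

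In crypts labelled Ern2-/-, too, members were higher after colonization. Between COLONIZED-Ern2-/- and GF-Ern2-/- libraries 13 members were higher and 0 lower, where 3.6% of 13943 genes were higher and 3.57% lower. The median log2 difference was 0.55, close to that under the WT label, and the all-gene median was -0.02. An unadjusted p below 0.05 was reached by 24 members with either tool, but edgeR called only Creld2, among 27 genes in all. When the 3 libraries with Ern2 at WT level were left out, Hspa5, Hyou1, Creld2, Fkbp11, Derl3 and Syvn1 were the 6 members among 1334 genes called, but the germ-free arm was then replicate 2 alone and was assumed to vary like the colonized arm. The goblet marker sum ran from 109760 to 249878 in GF-Ern2-/- and from 166509 to 318640 in COLONIZED-Ern2-/- libraries, so that these ranges overlapped, with 4 of 17 genes called higher and 1 lower. Enteroendocrine markers summed to 1300 to 1948 and to 2809 to 8001, with 4 of 9 called higher and 0 lower, and 4 of 12 enterocyte markers were called lower and 0 higher. The part of these cell types in the calls was not tested.

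Of the chaperones 7 of 11 were called. Creld2 had 550, 624 and 551 in GF-Ern2-/- and 2674, 2266 and 1740 in COLONIZED-Ern2-/- libraries (1.95, SE 0.22, adjusted p 3.38e-16). Hspa5 had 7420, 10843 and 6340 against 29160, 26533 and 19629 (1.61, SE 0.27, adjusted p 1.85e-07). Hsp90b1 had 11379, 12559 and 9695 against 21358, 24273 and 16792 (0.89, SE 0.21, adjusted p 0.000733). For each of these the COLONIZED-Ern2-/- mean was the highest of the 6 group means. Hyou1 (1.44, SE 0.23), Sdf2l1 (1.43, SE 0.29), Manf (1.34, SE 0.24) and Dnajc3 (0.78, SE 0.23, adjusted p 0.00998) rose as well. No lectin chaperone was called, although Calr (0.66), Uggt1 (0.67) and Canx (0.47) were above 0. Pdia4 had 2740, 3253 and 2251 against 7701, 7103 and 5195 (1.27, SE 0.23), Pdia6 had 3271, 3930 and 2554 against 7750, 6594 and 5422 (1.01, SE 0.24), and Ero1lb had 114, 89.2 and 105 against 241, 270 and 200 (1.20, SE 0.25, adjusted p 5.05e-05). These disulfide genes separated the groups in full, whereas Txndc5 (5375, 3880 and 3607 against 9888, 6618 and 6511) did so with a difference of 0.84 that was not called (adjusted p 0.0124). Fkbp11 rose from 61.1, 37.1 and 49.0 to 257, 120 and 181 (1.91, SE 0.37). Among ERAD genes Derl3 rose from 29.8, 12 and 25 to 310, 211 and 161 (3.34, SE 0.40, adjusted p 4.37e-14), the largest difference among the members, and Syvn1 rose from 1072, 814 and 1254 to 2466, 2010 and 1642 (0.96, SE 0.24, adjusted p 0.00181). Both were higher in 3 of 3 colonized libraries than in any germ-free library of that label. Of the members with an ERSE 8 of 10 were called, with a median of 0.98. Of those without one 3 of 24 were called, with a median of 0.41. Other fits moved these counts, to 8 and 9 with sex as a covariate and to 9 and 7 with the replicate block. They were 9 and 8 without GF-Ern2-/- replicate 2, 4 and 3 without COLONIZED-Ern2-/- replicate 1 or 2, and 1 and 0 with edgeR. The difference between these sets was not tested. Without the 3 libraries with Ern2 at WT level, 4 of the 10 and 1 of the 24 were called.

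The responses under the 2 genotype labels share no library. They had 12 called members in common, which is 54.5% of the 22 called under WT and 92.3% of the 13 called under Ern2-/-: Hspa5, Hsp90b1, Hyou1, Dnajc3, Sdf2l1, Manf, Creld2, Pdia4, Pdia6, Fkbp11, Derl3 and Syvn1. Over all genes 367 were called higher in both, which is 28.8% of 1275 under WT and 73.1% of 502 under Ern2-/-. Without the 3 libraries with Ern2 at WT level, 6 members were called under both labels (Hspa5, Hyou1, Creld2, Fkbp11, Derl3 and Syvn1), and 279 of all genes, and with edgeR 1 member (Creld2) and 9 of all genes were. A call under one label alone does not show that the responses differ. Tested directly, as the interaction of genotype label and colonization, 0 of 39 members were called, where 0% of 17884 genes were called higher and 0.028% lower. edgeR also called 0, and 5 members had an unadjusted p below 0.05 by either tool. By DESeq2 these were Derl3 (interaction, Ern2-/- minus WT, 1.43, SE 0.59), Edem3 (0.70, SE 0.34), Sel1l (0.64, SE 0.23), Ero1l (0.56, SE 0.27) and Fkbp2 (-0.58, SE 0.20). For Ero1l the WT difference was -0.47 and the Ern2-/- difference 0.09, and for Sel1l they were -0.10 and 0.54. Their adjusted p ran from 0.844 to 0.864. Without the 3 libraries whose Ern2 lay in the WT range, P4hb (-1.07, adjusted p 0.00024) and Erp29 (-0.93, adjusted p 0.00498), a thioredoxin-like ER protein, were among 421 genes called. In that fit GF-Ern2-/- was replicate 2 alone, assumed to vary like the other groups, and this library held the highest GF-Ern2-/- value of both genes (P4hb 27302 against 13977 and 11740, Erp29 1943 against 1153 and 1310).

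**Figure D4:**
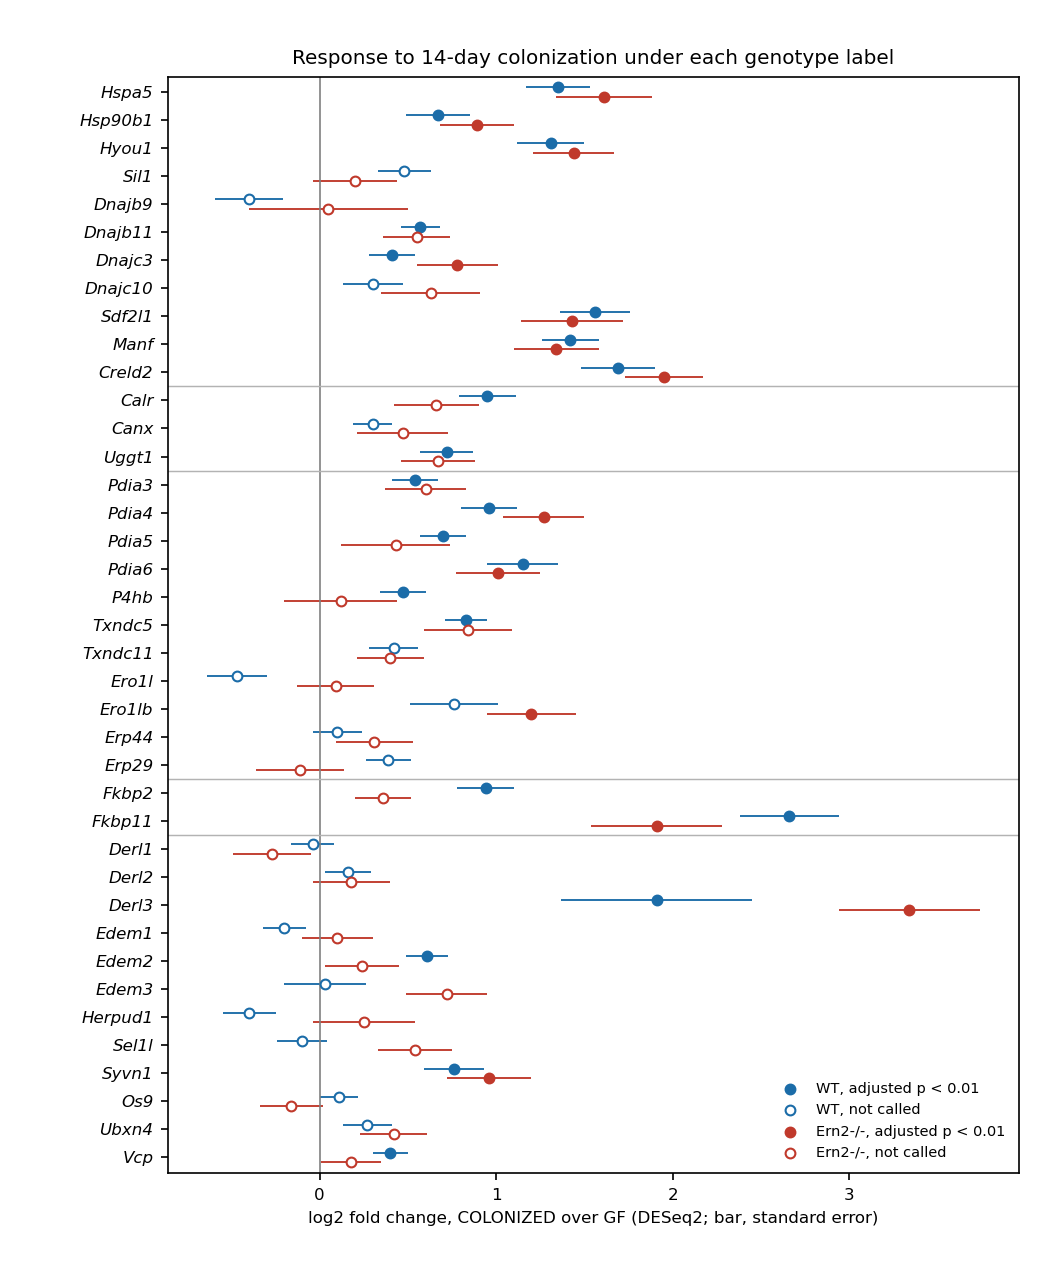
Log2 difference between COLONIZED and GF crypts for each member under the WT label (blue) and the Ern2-/- label (red); bars are standard errors from DESeq2 and filled points passed an adjusted p of 0.01. Most points lie right of 0 under both labels, Derl3 lies farthest right under Ern2-/- and Fkbp11 under WT.

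Conventional WT mice gave a result that turned on a single library. Between CONV-WT and GF-WT crypts, 3 members were higher and 0 lower, where 5.68% of 13872 genes were higher and 5.28% lower. The median log2 difference was 0.30, against -0.00 over all genes, and edgeR called 22 genes, none of them a member, with 5 members at an unadjusted p below 0.05, against 9 by DESeq2. The called members were Fkbp11 (69.9, 68.0 and 39.6 in GF-WT, and 556, 661 and 102 in CONV-WT; 2.89, SE 0.63, adjusted p 0.000114), Fkbp2 (675, 710 and 614, and 1314, 1656 and 897; 0.94, SE 0.27) and Ubxn4, a membrane protein that recruits p97 (1354, 1332 and 1362, and 1929, 2007 and 2111; 0.57, SE 0.12, adjusted p 4.92e-05). For these 3 genes CONV-WT replicate 3 also lay above every GF-WT library. For most others it did not: Hspa5 had 20954, 15930 and 3384 in CONV-WT, Creld2 had 1519, 1142 and 301, Sdf2l1 had 1501, 1275 and 268, and Pdia4 had 4608, 3706 and 1331, so that replicate 3 lay below all GF-WT values. Vcp, at 4107, 3826 and 3559, lay above the germ-free range in all 3 libraries, with a difference of 0.37 (adjusted p 0.0294). Without CONV-WT replicate 3, 25 members were higher and 0 lower, with a median of 0.65, while the calls over all genes went from 1521 to 2868. Hspa5 then had a difference of 1.70 (adjusted p 3.44e-18), Manf 1.67, Sdf2l1 1.77, Creld2 1.76, Hyou1 1.43, Txndc5 1.01 and Fkbp11 3.36. Leaving out any one of the other 5 libraries gave 1 call, Fkbp11. Marker lists differed between these groups as well, with 5 of 17 goblet markers called higher and 2 lower, 3 of 11 enterocyte markers tested lower and 0 higher, and 2 of 5 tuft and 2 of 9 mesenchymal markers higher and 0 lower. The mesenchymal markers summed to 435 in CONV-WT replicate 3 and to 72 and 112 in replicates 1 and 2. Their part in the result was not tested. The median coefficient of variation of the members was 57.9% in CONV-WT and from 9.07% to 20.7% in the other groups. Over all genes it was 22.9% in CONV-WT and from 9.92% to 20.1% in the other groups.

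In crypts labelled Ern2-/-, few members were called between the conventional and the germ-free state. Between CONV-Ern2-/- and GF-Ern2-/- libraries 2 were higher and 0 lower, where 1.57% of 13402 genes were higher and 2.77% lower. The median difference was 0.04 (all genes, -0.01), and 20 members were above and 19 below 0. edgeR called 4 genes, none of them a member. It put 9 members at an unadjusted p below 0.05, against 12 by DESeq2. The called members were Creld2, with 1548, 1153 and 1098 in CONV-Ern2-/- libraries (1.14, SE 0.23, adjusted p 7.87e-05), and Derl3, with 132, 151 and 132 (2.61, SE 0.42, adjusted p 7.25e-08). Both lay above all GF-Ern2-/- libraries. Derl3 was the 1 member called without the GF libraries whose Ern2 lay in the WT range, a fit in which the germ-free arm was replicate 2 alone and was assumed to vary like the conventional arm, and 5 members were higher (Creld2, Fkbp2, Fkbp11, Derl3 and Ubxn4) and 1, Pdia5, lower without CONV-Ern2-/- replicate 1. Hspa5, at 14993, 10500 and 11219, had a difference of 0.57 (SE 0.28, adjusted p 0.217), and Pdia5, at 973, 544 and 577, one of -0.74 (SE 0.32, adjusted p 0.151). The goblet marker sum was 73243 to 94206 in CONV-Ern2-/- libraries, the lowest of the 6 groups, and the enterocyte marker sum was 381062 to 506283 (117713 to 153706 without Car1). Against GF-Ern2-/- libraries 5 of 17 goblet markers were called lower and 1 higher, and 0 of 11 enterocyte markers tested were called. For enteroendocrine markers 3 of 9 were higher and 1 lower, and 1 of 5 tuft and 1 of 9 mesenchymal markers were higher. The part of these cell types in the result was not tested. Whether the conventional state acted differently under the 2 labels was tested as an interaction, which called 0 of 39 members, where 0.0461% of 13027 genes were higher and 0.115% lower. edgeR called 0 as well, with 0 at an unadjusted p below 0.05, and only Fkbp11 had an unadjusted p below 0.05 by DESeq2 (-1.57, SE 0.76, adjusted p 0.531). Without the GF libraries whose Ern2 lay in the WT range, which leaves replicate 2 as the GF-Ern2-/- arm, 0 members were called among 177 genes, with a median interaction of -0.39. Without CONV-WT replicate 3 this interaction called Dnajc10 (-1.65), Manf (-1.29), Pdia5 (-1.52), Txndc5 (-1.40) and Fkbp11 (-2.06), where 289 genes were called in all, against 21 with that library. Under the Ern2-/- label itself the differences, none of them called, were below 0 for Dnajc10 (-0.65), Pdia5 (-0.74) and Txndc5 (-0.40) and above 0 for Manf (0.39) and Fkbp11 (1.31).

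Genotype labels were then compared within each microbial state. In germ-free mice 0 members were called by DESeq2 and 0 by edgeR, where 0.0117% of 17167 genes were higher and 0.0233% lower. There were 7 members at an unadjusted p below 0.05 by DESeq2 and 4 by edgeR, all 7 of the former above 0: Derl3 (1.85, SE 0.63), Sdf2l1 (0.73), Creld2 (0.56), Hspa5 (0.54), Calr (0.52), Manf (0.49) and Pdia4 (0.44), each at an adjusted p of 1. The median was 0.21, against 0.02 over all genes. Without GF-Ern2-/- replicates 1 and 3, which leaves replicate 2 alone and assumes that it varies like the WT libraries, Hspa5 (0.95), Dnajb9 (1.24), Sdf2l1 (1.22), Canx (0.69) and P4hb (0.95) were called higher, while the calls over all genes went from 6 to 574. Replicate 2 was the highest of the 3 for each of these genes, with 1058 for Dnajb9 against 343 and 314, and 27302 for P4hb against 13977 and 11740.

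In colonized mice 5 members were higher under the Ern2-/- label and 0 lower, where 0.518% of 11960 genes were higher and 0.853% lower. They were the chaperones Hspa5 (14397 ± 2901 in COLONIZED-WT and 25107 ± 4923 in COLONIZED-Ern2-/-, mean ± SD, n = 3; difference 0.80, DESeq2 adjusted p 0.00443), Hsp90b1 (0.65, SE 0.16, adjusted p 0.00584) and Creld2 (0.82, SE 0.20, adjusted p 0.00442), the disulfide isomerase Pdia4 (0.76, SE 0.17, adjusted p 0.000912) and Derl3 (3.28, SE 0.31, adjusted p 1.22e-21). All 3 COLONIZED-Ern2-/- libraries exceeded all 3 COLONIZED-WT libraries in each. The median over the members was 0.25 (all genes, -0.00), and 22 members had an unadjusted p below 0.05. edgeR called 1 gene in all and 0 members but put 20 members at an unadjusted p below 0.05, and its adjusted p for Derl3 was 0.0221. Fkbp11 went the other way, with 449, 264 and 399 in COLONIZED-WT and 257, 120 and 181 in COLONIZED-Ern2-/- libraries, a log2 difference of -1.0 (SE 0.28) that was not called (adjusted p 0.0184). Hspa5, Hsp90b1 and Creld2 were called in 1 or 2 of the 6 fits without 1 library, Pdia4 in 3 and Derl3 in 6. Derl3 alone was called without COLONIZED-WT replicate 2 or COLONIZED-Ern2-/- replicate 2, 2 members without COLONIZED-WT replicate 1, 3 without COLONIZED-WT replicate 3, and 8 without COLONIZED-Ern2-/- replicate 3. Over all genes these 5 fits called from 81 to 149, against 164 with every library. Without COLONIZED-Ern2-/- replicate 1, whose Ern2 lay in the WT range, 3 members were higher (Derl3, Pdia4 and Dnajb9) and 3 lower (Fkbp11, Pdia5 and Txndc5), while the calls over all genes went from 164 to 656. Goblet markers ran lower in these crypts, with 4 of 17 genes called lower and 0 higher, and their part in these differences was not tested. The goblet list includes Ern2 itself, which was not among the genes called between the labels in any microbial state.

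In conventional mice Derl3 was the only member called between the labels, and it was higher under Ern2-/- (34.9, 16.8 and 3.65 in CONV-WT against 132, 151 and 132; 2.85, SE 0.59, adjusted p 0.000133), where 1.08% of 12625 genes were higher and 1.96% lower. It was not called without CONV-WT replicate 2 (2.76, adjusted p 0.0112) or with sex as a covariate (1.98, adjusted p 0.0672). With sex in the fit, the difference between the labels rested on CONV-WT replicate 1, the only CONV-WT library with Y-linked expression. The median of the members was -0.02 (all genes, 0.02), 5 had an unadjusted p below 0.05, and edgeR called 0 members and 0 genes in all, with 4 members below that p. Without CONV-WT replicate 3, where the calls over all genes went from 383 to 1669, Derl3 was higher (2.41) and 10 members were lower under Ern2-/-: Sil1 (-1.20), Dnajc10 (-1.86), Manf (-0.80), Pdia3 (-0.68), Pdia5 (-1.66), Pdia6 (-0.84), Txndc5 (-1.74), Txndc11 (-0.87), Fkbp11 (-2.32) and Herpud1 (-0.86). Hspa5, Hsp90b1 and Creld2 were not among them. The summed goblet markers ran from 108136 to 675660 in CONV-WT and from 73243 to 94206 in CONV-Ern2-/- libraries, with 11 of 17 genes called lower and 0 higher, and 5 of 12 enterocyte markers were called higher and 0 lower. The part of these cell types in the differences was not tested. The labels did not overlap in any of the 3 microbial states for 1 of 39 members, Derl3, which was higher under Ern2-/- in each; 0.0804% of 12441 genes were higher in this way and 0.482% lower, and 0 members were lower. Leaving out the 3 libraries with Ern2 at WT level cannot undo a separation, so that it was no further check of Derl3. The GF-Ern2-/- arm was then replicate 2 alone, with 12 normalized counts of Derl3 against 5.55 to 7.01 in GF-WT. Derl3 was the 1 of 39 members separated in this way, where 1.82% of genes were higher and 3.17% lower. Those plasma cell and B cell markers that were in the count table, without immunoglobulin chains, summed to between 8 and 10 in the COLONIZED-Ern2-/- libraries, where Derl3 was highest. In the CONV-Ern2-/- libraries they summed to 15, 24 and 11, of which Igj made up 10.4, 17.8 and 8.28, and their part in the Derl3 difference was not tested.

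The 2 states with microbes were also compared. Under the WT label, CONV and COLONIZED crypts differed in 0 members by DESeq2 and 0 by edgeR, where 0.0446% of 13458 genes were higher in CONV and 0.0743% lower. The median was -0.24 (all genes, 0.01), and 1 member, Ubxn4 (0.31, SE 0.16), had an unadjusted p below 0.05, against 0 by edgeR. Without CONV-WT replicate 3 the median was 0.14 and Dnajc10 was called higher, while the calls over all genes went from 16 to 197. In the libraries labelled Ern2-/-, 12 members were lower in CONV than in COLONIZED crypts and 0 higher, where 4.86% of 13098 genes were higher and 3.73% lower. The median was -0.60 (all genes, -0.01), with 35 of 39 below 0. Lower were Hspa5 (-1.03, SE 0.22, adjusted p 0.00015), Hyou1 (-1.03, SE 0.29), Dnajc3 (-0.85), Dnajc10 (-1.27, SE 0.27), Sdf2l1 (-0.85), Manf (-0.94), Creld2 (-0.81), Pdia3 (-0.84), Pdia4 (-0.94), Pdia5 (-1.16), Pdia6 (-0.97) and Txndc5 (-1.23, SE 0.27). No lectin, prolyl isomerase or ERAD gene was called, and Derl3 had a difference of -0.72 (adjusted p 0.0802). No member was called without COLONIZED-Ern2-/- replicate 1, the library with the highest values of Hspa5, Creld2 and Derl3 and with Ern2 at WT level. This library held the highest of the 18 values for 15 of the 39 members (38.5%), against 2.09% of all genes. Without CONV-Ern2-/- replicate 1, 24 were lower and 1 (Fkbp2) higher, with the calls over all genes going from 1125 to 2499, and without any one of COLONIZED-Ern2-/- replicate 2 and CONV-Ern2-/- replicates 2 and 3, 5 or 6 were lower. None passed with edgeR, which called 35 genes in all and put 21 members at an unadjusted p below 0.05, against 25 by DESeq2. Marker lists moved with this comparison: 8 of 17 goblet markers were called lower in CONV and 0 higher (sums of 73243 to 94206 against 166509 to 318640), 3 of 9 enteroendocrine markers were lower and 0 higher, and 9 of 12 enterocyte markers were higher and 0 lower. Of the markers of other cell types, 2 of 9 mesenchymal and 1 of 2 endothelial markers tested were higher in CONV and 0 lower, with mesenchymal sums of 76, 278 and 400 against 67 to 103. Their part in the result was not tested.

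Of the 39 members, 25 were called in at least 1 of the 9 comparisons between groups and 14 in none, where 31.9% of the 11879 genes tested in all 9 were called in at least 1. Creld2 and Derl3 were called in 5, and Hspa5 and Pdia4 in 4. The 14 were Sil1 and Dnajb9 among the chaperones, Canx among the lectins, the disulfide genes Txndc11, Ero1l, Erp44 and Erp29, the retrotranslocation genes Derl1 and Derl2, Edem1 and Edem3, which act on mannose trimming, and Herpud1, Sel1l and Os9 of the HRD1 complex. Within the HRD1 complex, Syvn1 was called in both colonization comparisons and its partners Sel1l, Herpud1 and Os9 in neither, and the difference between them was not tested. Misses were narrow for Sil1 (adjusted p 0.0103) and Txndc11 (0.0107) in COLONIZED-WT against GF-WT crypts. Os9, the lectin that reads trimmed glycans, had no adjusted p below 0.398 in any of the 9.

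Other genes of the same compartment, from a wider list of 86 folding and degradation genes of which 81 were in the table, moved in both directions. In COLONIZED-WT against GF-WT crypts 12 of 75 tested were higher and 8 lower, with a median of 0.01, where 9.35% of all genes tested were higher and 8.97% lower, and edgeR called 3. Agr2, a goblet cell disulfide isomerase that is also among the goblet markers, rose by 1.54 and Serp1, a ribosome-associated ER membrane protein, by 0.70, while Erlin1, a scaffold of ERAD, fell by 0.91. Under the Ern2-/- label 4 of 76 were higher and 1 lower after colonization, where 3.6% of all genes were higher and 3.57% lower, and edgeR called 1. Of 12 sensors and factors of the unfolded protein response, 2 were higher in COLONIZED-WT than in GF-WT crypts, Xbp1 (0.41, DESeq2 adjusted p 0.00568) and Atf6b (0.50, adjusted p 0.00452). Neither passed with edgeR (adjusted p 0.027 and 0.0201), which put 5 of the 12 at an unadjusted p below 0.05. Of 24 targets of EIF2 and ATF4 signaling tested, 13 were higher and 2 lower in COLONIZED-WT than in GF-WT crypts, where edgeR called 8. Between COLONIZED-Ern2-/- and GF-Ern2-/- crypts 12 were higher and 0 lower, but none passed with edgeR, which put 15 at an unadjusted p below 0.05. In colonized mice 3 of the 24 were higher and 0 lower under the Ern2-/- label, where 0.518% of all genes were higher and 0.853% lower, and again none passed with edgeR, by which 9 had an unadjusted p below 0.05.

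**Figure D5:**
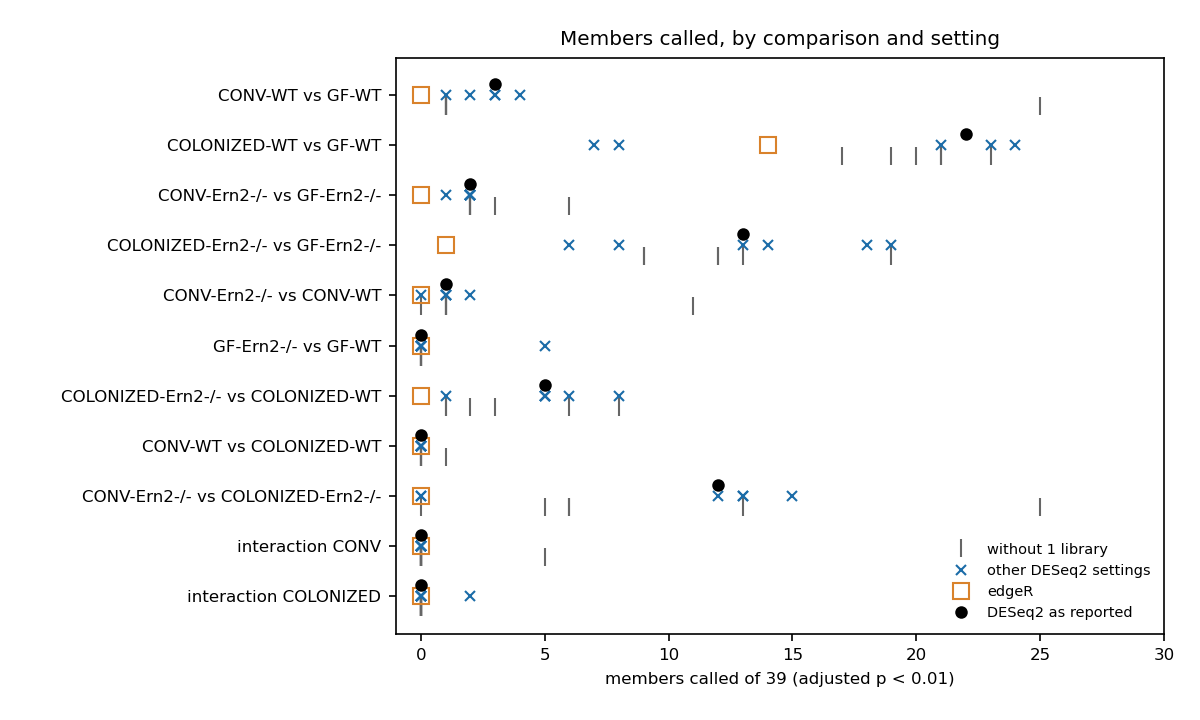
Number of the 39 members called at an adjusted p of 0.01 (x axis) in each comparison (rows) under DESeq2 as reported (dots), edgeR (squares), other DESeq2 settings (crosses) and fits without 1 library (ticks). The dot lies at 22 for COLONIZED-WT against GF-WT, and CONV-WT against GF-WT reaches 25 without 1 library.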

How the data were processed

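RNA-Seq of colon crypt epithelial cells was analyzed in 18 libraries, 3 in each of 6 groups taken from the sample labels. Per the study's methods, stranded mRNA libraries were sequenced for 75 cycles on 1 end, and the authors aligned reads with STAR within the VIPER pipeline and deposited raw counts per gene, with build mm10 per the processing notes. Software versions, the annotation used and how the counting treated strand are not given in the sources used here. Each comparison was fitted on its own 6 libraries (12 for an interaction) by the Wald test of DESeq2 1.42.0 (R 4.3.3), keeping its defaults for scaling, filtering and outliers, and p-values were adjusted by Benjamini-Hochberg over all genes tested and called below 0.01. Log2 differences were not shrunk. Normalized counts were divided by size factors of all 18 libraries. Alternatives were edgeR 4.0.16 (quasi-likelihood, TMM), TMM size factors, genes with at least 10 counts in 3 libraries, the replicate number as a block, sex from Y-linked counts as a covariate, 1 fit of all 18 libraries, and fits without single libraries or without the libraries labelled Ern2-/- whose Ern2 lay in the WT range. All 39 members were tested by DESeq2 in every comparison. edgeR tested 38 in CONV-WT against GF-WT crypts, without Derl3. The members and gene lists were chosen with earlier results of these data known. Within each role, values per library are given for up to 5 members called in any of the 9 comparisons, those with the largest log2 difference. Hspa5, Hsp90b1, Derl3 and Vcp are also given. Dnajb9, P4hb and Erp29 lie outside this rule and were added after their values were seen. Kilobases are unions of annotated exons (GENCODE vM21), and promoters are from RefSeq. The DESeq2 and edgeR fits of COLONIZED-WT against GF-WT were tested on simulated counts, and those of the other comparisons were not.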

Additional observations from a re-analysis of the deposited data

How the results depend on the processing

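No member changed sign under any alternative in a comparison where it was called. edgeR called 0 members in CONV-WT against GF-WT crypts, 14 in COLONIZED-WT against GF-WT, 0 in CONV-Ern2-/- against GF-Ern2-/-, 1 in COLONIZED-Ern2-/- against GF-Ern2-/-, and 0 between the labels in conventional and in colonized mice and between CONV-Ern2-/- and COLONIZED-Ern2-/-. With sex as a covariate the counts were 1 in CONV-WT against GF-WT, 7 in COLONIZED-WT against GF-WT, 0 between the labels in conventional mice and 8 in colonized mice. As given above, the 7 and the 0 came from fits whose difference rested on 1 library of 1 group. In 1 fit of all 18 libraries they were 8 in each colonization comparison, 2 between the labels in conventional mice, 1 in colonized mice and 0 between CONV-Ern2-/- and COLONIZED-Ern2-/-. Without the libraries whose Ern2 lay in the WT range they were 1 in CONV-Ern2-/- against GF-Ern2-/-, 6 in COLONIZED-Ern2-/- against GF-Ern2-/-, 5 between the labels in germ-free mice, 0 between CONV-Ern2-/- and COLONIZED-Ern2-/-, and 2 in the colonization interaction. Without 1 library at a time they ran from 1 to 25 in CONV-WT against GF-WT, 2 to 6 in CONV-Ern2-/- against GF-Ern2-/-, 0 to 11 between the labels in conventional and 1 to 8 in colonized mice, 0 to 1 between CONV-WT and COLONIZED-WT, 0 to 25 between CONV-Ern2-/- and COLONIZED-Ern2-/-, and 0 to 5 in the conventional interaction. For COLONIZED against GF crypts they ran from 17 to 23 under the WT label and from 9 to 19 under the Ern2-/- label. Under the WT label Hsp90b1 was called in 3 of the 6 such fits, and Dnajc3 and P4hb in 2. Under the Ern2-/- label Hsp90b1, Dnajc3, Pdia6 and Syvn1 were not called without COLONIZED-Ern2-/- replicate 1 or 2. Replicate numbers did not pair the samples: correlations of same-numbered deviations ran from -0.24 to 0.59 over 12441 genes, and the replicate block gave 21 calls in COLONIZED-WT against GF-WT and 18 in COLONIZED-Ern2-/- against GF-Ern2-/-. The causes of these shifts were not tested. Low counts limit Derl3, with 8 to 10 raw counts in GF-WT libraries and 12 in GF-Ern2-/- replicate 2. In CONV-WT replicates 2 and 3 its raw counts were 17 and 2.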
